A study of Mus musculus with 6 samples.

Results

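The genes described here are 49 genes of epithelial cells: keratins, junction proteins, the regulators that keep cells epithelial, and genes of the gut lining. They were taken by gene symbol from a table of 22134 genes, and 49 of 49 symbols were found. They were sorted by role into simple keratins (4 genes), basal and stratified genes (7), adhesion and tight junctions (11), the desmosome (3), regulators of transcription and splicing (6), surface proteins and protease control (5) and intestinal genes (13). Fat of wild-type (WT) mice was sequenced as total RNA, with ribosomal RNA removed. Creeping fat, mesenteric fat that wraps injured bowel, was sampled in 3 libraries from mice whose colon had been injured by cautery more than once, and mesenteric fat of healthy controls in 3. The labels give neither age nor sex, and nothing in them says that the libraries of a group are separate animals. The p-values therefore measure only the spread between these libraries, part of which may be technical.

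Epithelial cells line surfaces and glands and are held together by E-cadherin, tight junctions of claudins and occludin, and desmosomes anchored to keratin filaments. Single-layered epithelia carry keratins 8, 18 and 19, basal cells of layered epithelia and of glands carry keratins 5 and 14, and the intestinal lining adds the transcription factors Cdx1 and Cdx2, mucins and brush border proteins. The mesothelium that covers mesenteric fat shares keratins 8, 18 and 19 with epithelia, and the pancreas, the bowel wall and the male accessory glands lie close to that fat.

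Values are FPKM, fragments per kilobase of gene scaled to the total fragments of the library, and levels of different genes are compared per length on this scale. The libraries held 31186018 to 43415696 reads, recovered from the FPKM values. A gene of 1 kilobase with 3 reads would stand at 0.0691 to 0.0962 FPKM, a limit that covers counting error only. The fat cell genes Adipoq and Plin1 were present in every library, Adipoq at 80.05 to 174.5 FPKM in creeping fat and 451 to 1536 FPKM in controls. Genes of other organs moved with the group. Seminal vesicle genes (15 in the table) took 5.35%, 9.50% and 9.53% of all FPKM in the creeping fat libraries, in order, and 0.00744% to 0.0289% in controls. Genes of the pancreatic acinus (30) took 0.0894%, 2.00% and 0.0976% in the same libraries and 5.24% to 13.7% in controls. Control 2 stood apart from the other libraries on the second principal component, which held 19.72% of the variance. The part of these tissues and of this library in the results below was not tested, unless a value without the library is given.

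In limma's test on log2(FPKM + 1), a call required an adjusted p (Benjamini-Hochberg) below 0.05, and a gene was tested if it reached 1 FPKM in at least 3 libraries. Of the 49 genes 38 were tested, and 3 of these (Cldn4, Cldn8 and Prom1) passed through creeping fat alone, with no control at 1 FPKM. Such genes had to differ to be tested, so the counts of tested genes are a description. Krt18, Cldn3, Cldn4, Cldn8, Esrp1, Elf3 and Ehf rose in creeping fat, 0 genes fell, and 31 were not called. At an unadjusted p under 0.05 the test had 18 genes. The 7 called genes are 18.4% of those tested, and 9.35% of all 12812 tested genes were higher and 6.81% lower. The FPKM of the groups did not overlap in 15 of the 49 genes (30.6%), each higher in creeping fat, against 17% of all 18714 genes above 0 that were higher without overlap and 14.1% that were lower. Over all 49 genes, with no filter, the median difference of mean log2(FPKM + 1) was 0.77, and over the 18714 genes it was 0.00. The 15 genes without overlap were Krt18, Krt5, Krt14, Epcam, Cldn3, Cldn4, Cldn7, Cldn8, Dsp, Esrp1, Grhl2, Elf3, Ehf, Prom1 and Slc26a3. In tissue RNA, a change in the number of cells of a type and a change in RNA per cell cannot be told apart.

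Calls are given by class, against 9.35% of all tested genes higher and 6.81% lower. The simple keratins had 1 call among 4 tested genes, the junction genes 3 of 9 and the regulators 3 of 4. Among the junction calls, Cldn4 and Cldn8 were tested through creeping fat alone. The desmosome (3 tested), the surface and protease genes (5 tested), the basal and stratified genes (2 tested) and the intestinal genes (11 tested) had 0. At an unadjusted p under 0.05 these last 4 classes had 2, 2, 0 and 1 genes. The median differences with no filter were 1.13 for simple keratins, 0.23 for basal and stratified genes, 1.34 for junctions, 0.99 for the desmosome, 1.08 for regulators, 0.73 for surface and protease genes and 0.67 for intestinal genes. The difference between classes was not tested.

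**Figure D1:**
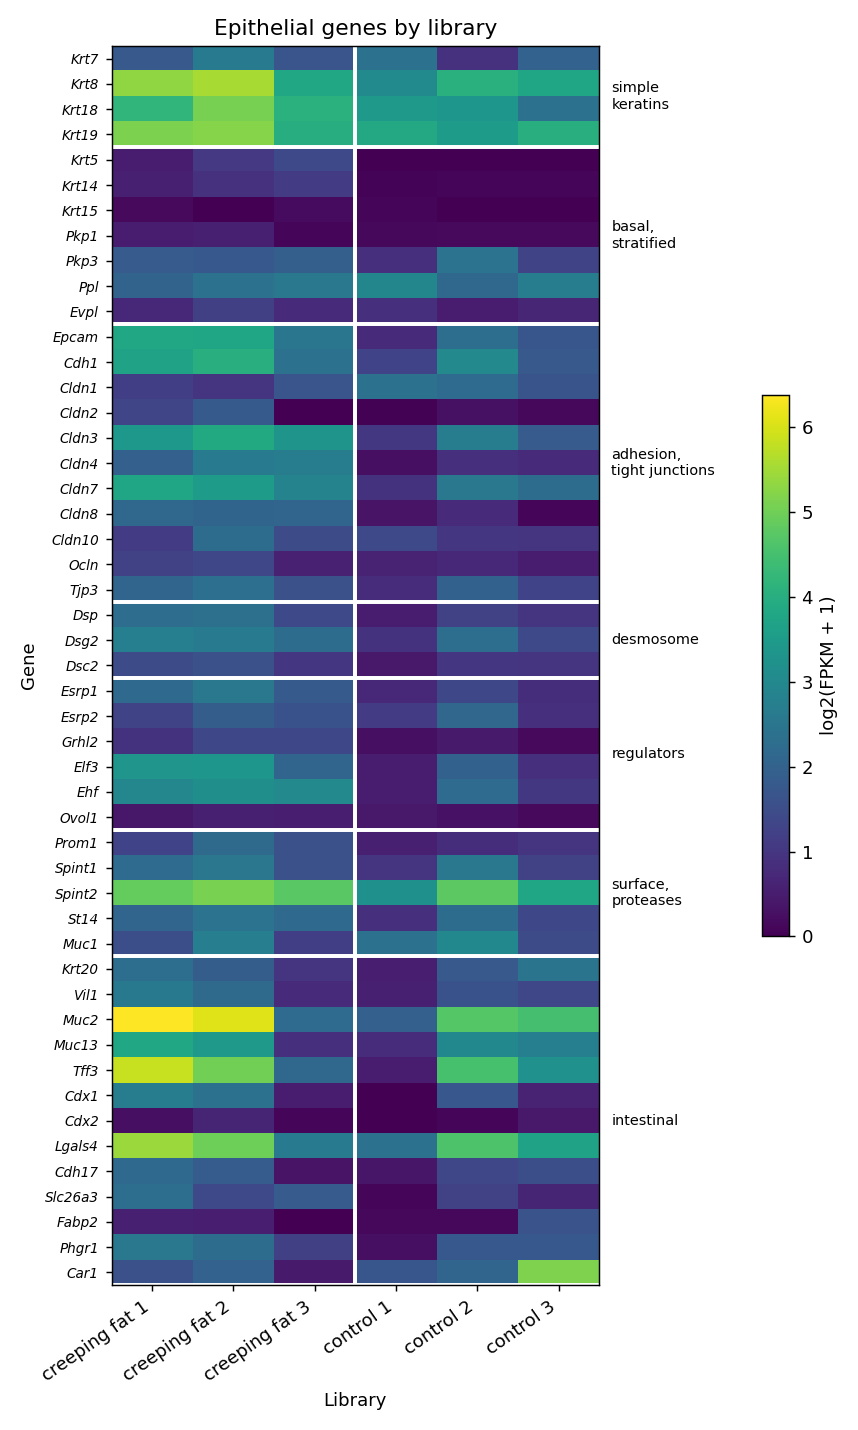
Level of each of the 49 epithelial genes (rows, by class) in each library (columns), as log2(FPKM + 1) on the colour scale. Intestinal genes such as Muc2 and Tff3 are bright in creeping fat 1 and 2, intermediate in control 2 and 3 and dark in creeping fat 3 and control 1, while Cldn8, Ehf and Grhl2 are brighter in each creeping fat library than in each control.

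Most of the 49 genes were lowest in the same control. Control 1 was the lowest library for 29 of them, creeping fat 2 the highest for 22 and creeping fat 1 the highest for 13. Summed over the 49 genes the level was 458, 454 and 175 FPKM in creeping fat libraries 1 to 3 and 86.5, 230 and 181 FPKM in controls 1 to 3. Creeping fat 3 therefore lay among the controls in this sum. The intestinal genes made up 223.5, 161 and 19.8 FPKM of it in creeping fat libraries 1 to 3. In controls 1 to 3 they made up 12.1, 92.8 and 95.8 FPKM. In each class but the intestinal genes and the surface and protease genes, the sum in creeping fat 3 was above that in each control.

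Promoters are shown for the 4 called genes for which RefSeq (GRCm38.p6) has a start site in the table used, 250 bases before to 50 bases after the start. Capitals mark CAGGTG or its reverse complement CACCTG, the E-box that the repressors of epithelial genes Snai1, Snai2, Zeb1 and Zeb2 are known to bind.
Cldn3 promoter, chr5:134985964-134986263, plus strand: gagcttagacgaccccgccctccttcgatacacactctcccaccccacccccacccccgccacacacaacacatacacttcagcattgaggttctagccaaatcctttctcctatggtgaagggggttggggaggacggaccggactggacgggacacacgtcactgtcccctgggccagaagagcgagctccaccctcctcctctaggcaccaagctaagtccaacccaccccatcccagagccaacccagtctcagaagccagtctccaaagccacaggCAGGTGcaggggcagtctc
Cldn4 promoter, chr5:134946885-134947184, minus strand: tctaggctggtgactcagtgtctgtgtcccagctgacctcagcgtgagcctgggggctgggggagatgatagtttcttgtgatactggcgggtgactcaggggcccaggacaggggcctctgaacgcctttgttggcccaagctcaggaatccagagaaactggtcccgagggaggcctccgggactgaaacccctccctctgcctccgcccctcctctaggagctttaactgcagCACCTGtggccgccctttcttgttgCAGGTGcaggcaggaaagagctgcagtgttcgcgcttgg
Elf3 promoter, chr1:135258423-135258722, minus strand: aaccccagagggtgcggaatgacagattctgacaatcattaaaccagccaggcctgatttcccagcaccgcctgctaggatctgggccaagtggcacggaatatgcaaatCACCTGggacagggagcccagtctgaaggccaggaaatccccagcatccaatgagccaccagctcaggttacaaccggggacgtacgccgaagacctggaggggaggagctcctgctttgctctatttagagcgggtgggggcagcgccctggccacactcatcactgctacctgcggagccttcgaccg
Krt18 promoter, chr15:102027966-102028265, plus strand: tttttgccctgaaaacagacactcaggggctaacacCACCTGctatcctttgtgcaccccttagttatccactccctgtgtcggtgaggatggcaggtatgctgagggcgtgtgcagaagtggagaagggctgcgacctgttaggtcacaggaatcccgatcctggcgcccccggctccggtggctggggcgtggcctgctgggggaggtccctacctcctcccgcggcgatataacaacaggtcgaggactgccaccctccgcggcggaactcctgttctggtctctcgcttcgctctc
Cldn4 holds 2 such matches and the others 1 each. Of the 49 genes 29 have at least 1 promoter in the table, and 19 of the 29 (65.5%) hold CAGGTG on either strand, against 22.6% of 27025 genes and 22.1% of 17492 protein-coding genes. By window the share was 21 of 35 (60.0%) against 20.2% of 32851 windows. Of 3 other motifs searched on both strands, AGGAAG, the core bound by ETS factors such as Ehf and Elf3, was in 13 of the 29 genes (44.8%, against 38.4% of genes). TATAAA was in 6 (20.7%, against 15.7%). AACCGGTT, the grainyhead site, was in 0 (against 0.2%). A match is a run of letters and not a site shown to be bound, and none of the 4 motifs contains another.

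Krt8, Krt18 and Krt19 were the most abundant genes of the cytoskeleton and junctions among the 49. Krt8 stood at 38.9, 45.5 and 13.1 FPKM in creeping fat libraries 1 to 3 and at 7.23, 15.5 and 12.5 FPKM in controls 1 to 3. Creeping fat 3 lay between control 3 and control 2, so the groups overlapped, and Krt8 was not called (1.28 ± 0.49, limma's difference of mean log2(FPKM + 1) ± SE; adjusted p = 0.126). Its partner in the filament, Krt18, stood at 17.4, 32.5 and 15.9 FPKM in creeping fat and 9.78, 9.23 and 4.18 FPKM in controls. These groups did not overlap, and Krt18 rose by 1.40 ± 0.37 (adjusted p = 0.0464; n = 3 in each group). The call was lost with no filter, with quantile normalization, with rescaling and without any library but control 2.

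Krt19, a keratin of ducts and of the gut and mesothelium, stood at 34.1, 36.2 and 14.7 FPKM in creeping fat and 13.4, 10.3 and 15.3 FPKM in controls. Creeping fat 3 was below control 3, and Krt19 was not called (0.98 ± 0.35, adjusted p = 0.106). Krt7, of ducts and mesothelium, was lower, at 2.44, 5.25 and 2.23 FPKM against 4.17, 0.869 and 3.04, and was not called (0.28 ± 0.43, adjusted p = 0.727). Krt7 was lowest in control 2, the library in which mesothelial genes were also lowest. The summed level of 4 simple keratins was 92.9, 119.5 and 46.0 FPKM in creeping fat libraries 1 to 3 and 34.6, 35.9 and 35.1 FPKM in controls. In this sum the controls lay within 1.04-fold of each other while creeping fat spanned 2.6-fold. Single genes were less even in controls. Krt7 and Krt18 spanned more there than in creeping fat (4.8-fold against 2.36-fold and 2.34-fold against 2.04-fold). Krt8 and Krt19 spanned less (2.14-fold against 3.47-fold and 1.48-fold against 2.46-fold). The FPKM ratio of Krt8 to Krt18, which pair in 1 filament, was 2.23, 1.40 and 0.824 in creeping fat libraries 1 to 3 and 0.739, 1.67 and 3.00 in controls 1 to 3. In GENCODE M21, 22.0% of the 75-base windows of Krt8 transcripts also occur in its pseudogene Krt8-ps, so Krt8 values are uncertain.

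Among the junction genes the calls of Cldn4 and Cldn8 held when any 1 library was left out. Both were tested through creeping fat alone, with no control at 1 FPKM, so these calls are a description. Cldn4 encodes a claudin that tightens the paracellular barrier. It stood at 2.90, 5.09 and 5.53 FPKM in creeping fat libraries 1 to 3 (190, 322 and 329 reads) and at 0.199, 0.814 and 0.686 FPKM in controls 1 to 3 (14, 46 and 54 reads). Every creeping fat library was above every control, and Cldn4 rose by 1.80 ± 0.26 (4.51 ± 1.41 against 0.566 ± 0.325 FPKM, SD, n = 3; adjusted p = 0.00665). Cldn8, a claudin of distal colon and of kidney and gland ducts, stood at 3.48, 3.19 and 3.24 FPKM in creeping fat, a spread of 1.09-fold, and at 0.262, 0.680 and 0.0781 FPKM in controls. Cldn8 rose by 1.71 ± 0.20 (3.31 ± 0.156 against 0.340 ± 0.308 FPKM; adjusted p = 0.00354). Because 1 was added before taking logs, these differences understate the change of genes as low as these: with voom on recovered reads the difference was 3.16 for Cldn4 and 3.83 for Cldn8.

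Cldn3, a claudin of most single-layered epithelia, stood at 9.61, 13.8 and 8.90 FPKM in creeping fat and 1.04, 5.51 and 2.53 FPKM in controls. Cldn3 rose by 1.68 ± 0.41 (adjusted p = 0.0356; lost with no filter), and the highest control was control 2. In GRCm38.p6 coordinates the protein-coding genes Cldn3 (134986214 to 134987476) and Cldn4 (134945123 to 134946934) are close neighbours on chromosome 5, Cldn8 lies on chromosome 16 from 88560826 to 88563183, and Krt18 on chromosome 15 from 102028216 to 102032026. Their values in the 6 libraries were not alike in order: Cldn3 was highest in creeping fat 2 and Cldn4 in creeping fat 3.

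Epcam and Cdh1, the adhesion genes most used to define epithelial cells, were not called. Epcam stood at 13.1, 12.7 and 4.65 FPKM in creeping fat and 0.724, 3.98 and 2.26 FPKM in controls, without overlap (1.76 ± 0.49, adjusted p = 0.054). Cdh1, which encodes E-cadherin, stood at 11.9, 15.1 and 4.33 FPKM in creeping fat and 1.44, 6.99 and 2.45 FPKM in controls, so creeping fat 3 was below control 2 (1.34 ± 0.55, adjusted p = 0.153). Cldn7, which binds Epcam at the side of the cell, stood at 12.7, 10.4 and 6.18 FPKM against 0.903, 4.86 and 3.79, without overlap (1.46 ± 0.45, adjusted p = 0.0734). Without control 2 each of Epcam, Cdh1 and Cldn7 was called.

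The remaining junction genes were low. Tjp3, a scaffold of the tight junction, stood at 1.97 to 3.99 FPKM in creeping fat and 0.753 to 2.95 FPKM in controls (0.63 ± 0.34, adjusted p = 0.264). Its exons overlap those of Apba3 on the other strand, whose reads cannot be told apart without a stated strand setting. Cldn10 stood at 1.19, 3.74 and 1.75 FPKM against 1.64, 0.998 and 0.972 and was not called. Cldn1, a claudin of skin and other layered epithelia, had the opposite sign, at 1.28, 0.945 and 2.23 FPKM in creeping fat and 4.23, 3.67 and 2.17 FPKM in controls (-0.81 ± 0.27, adjusted p = 0.0887). Creeping fat 3 was just above control 3, so the groups overlapped. Ocln, which encodes occludin, and Cldn2 did not pass the filter, and Ocln stood at 0.505 to 1.55 FPKM against 0.409 to 0.676. Cldn2, the pore-forming claudin of leaky epithelia, had 179 and 288 reads in creeping fat 1 and 2 but 1 read in creeping fat 3, and 3, 22 and 14 reads in controls 1 to 3.

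Desmosome genes were in the same range. Dsp, which encodes desmoplakin, the link from the desmosome to keratin, stood at 3.86, 4.15 and 1.67 FPKM in creeping fat and 0.413, 1.37 and 0.961 FPKM in controls, without overlap (1.12 ± 0.31, adjusted p = 0.0565). Dsg2, a desmosomal cadherin, stood at 5.72, 5.17 and 3.78 FPKM against 0.918, 3.92 and 1.66, so creeping fat 3 was just below control 2 (0.99 ± 0.35, adjusted p = 0.103). Dsc2, its partner, stood at 1.01 to 2.01 FPKM against 0.342 to 1.03 (0.55 ± 0.24, adjusted p = 0.181).

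Regulators of the epithelial state gave 3 calls among 4 tested genes, where 9.35% of all tested genes were higher. Ehf and Elf3 are ETS factors of epithelia, and Esrp1 is the splicing factor that sets epithelial isoforms. Ehf stood at 6.74, 8.03 and 7.04 FPKM in creeping fat and 0.423, 3.73 and 1.05 FPKM in controls, and rose by 1.78 ± 0.41 (adjusted p = 0.0301; lost with no filter). Creeping fat was even for Ehf (1.19-fold from lowest to highest) and controls were not (8.82-fold, with control 2 highest). Elf3 stood at 9.11, 9.30 and 3.20 FPKM against 0.399, 2.92 and 0.852, with a difference of 1.81 ± 0.49 (adjusted p = 0.0489). That call was lost with a pseudocount of 0.1, with no filter, with rescaling, with voom, with the replicate block (adjusted p = 0.0504) and in 4 of 6 fits with 1 library left out. Creeping fat 3 was just above control 2. Esrp1 stood at 3.56, 4.91 and 2.52 FPKM against 0.629, 1.60 and 0.789, and rose by 1.22 ± 0.26 (adjusted p = 0.0236).

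Esrp2, a close relative of Esrp1, was highest in control 2, at 1.499, 2.70 and 2.04 FPKM in creeping fat and 1.17, 3.33 and 0.859 FPKM in controls (0.23 ± 0.34, adjusted p = 0.715). Its exons overlap those of Nfatc3 on the other strand. Grhl2, the grainyhead factor that keeps Cdh1 and claudins on, did not pass the filter, at 0.925, 1.62 and 1.63 FPKM in creeping fat (200, 339 and 319 reads) and 0.202, 0.381 and 0.123 FPKM in controls (47, 71 and 32 reads). Its groups did not overlap, and with no filter Grhl2 was called (0.94, adjusted p = 0.0206), a setting in which 5.89% of 18714 genes were higher and 3.84% lower. Ovol1, a repressor of mesenchymal genes, stood below 1 FPKM in each library, at 0.124 to 0.471 FPKM.

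**Figure D2:**
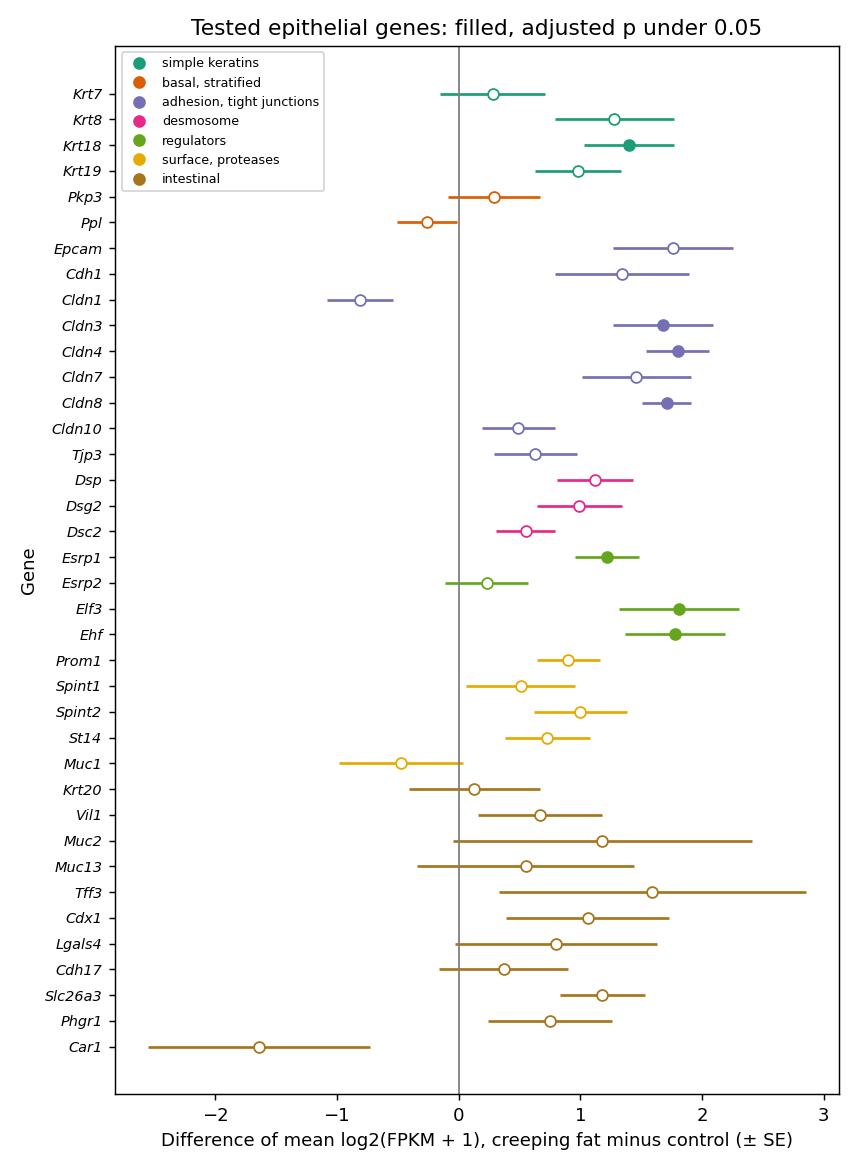
Creeping fat minus control in mean log2(FPKM + 1), with limma's standard error, for the 38 tested genes, coloured by class. Filled points are the 7 genes with an adjusted p under 0.05; the intestinal genes Muc2 and Tff3 have differences of 1.18 and 1.59 and the widest errors of these genes (1.23 and 1.26).

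Surface and protease genes were not called. Spint2, an inhibitor of membrane serine proteases, was the most abundant, at 28.2, 33.3 and 26.0 FPKM in creeping fat and 8.18, 26.3 and 12.5 FPKM in controls. Control 2 was just above creeping fat 3 (1.00 ± 0.38, adjusted p = 0.126). Its relative Spint1 stood at 3.71, 4.81 and 1.99 FPKM against 0.979, 4.90 and 1.41 (0.51 ± 0.45, adjusted p = 0.504). St14, the protease matriptase that both inhibit, stood at 3.25, 4.41 and 3.53 FPKM against 0.820, 3.81 and 1.61 (0.73 ± 0.35, adjusted p = 0.212). For each of these 3 genes control 2 was the highest control and lay within or above the creeping fat range. Prom1, a protein of membrane protrusions, stood at 1.45, 3.60 and 1.98 FPKM against 0.466, 0.796 and 0.955, without overlap (0.90 ± 0.26, adjusted p = 0.0632). Muc1, a membrane mucin of glands, had the opposite sign, at 1.87, 5.60 and 1.29 FPKM against 4.30, 6.90 and 1.75 (-0.47 ± 0.51, adjusted p = 0.603).

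Basal keratins were present at low levels in creeping fat. Krt5 had 34, 84 and 120 reads in creeping fat libraries 1 to 3 (0.426, 1.09 and 1.66 FPKM) and 0 reads in each control. With reads pooled over each group, and a limit of 3 reads over the controls (0.012 FPKM), Krt5 was at least 86.6-fold higher in creeping fat. This bound covers counting error only and not the spread between libraries, so it does not hold for each creeping fat library. Its partner Krt14 had 29, 52 and 67 reads in creeping fat (0.466, 0.865 and 1.19 FPKM) and 3, 4 and 5 reads in controls. Neither passed the filter, and with no filter both were called (adjusted p = 0.0435 for Krt5 and 0.028 for Krt14). Among the creeping fat libraries both were lowest in creeping fat 1, and so was the seminal vesicle share (5.35% against 9.50% and 9.53%). Each control was lower still in all of these, and a link between them was not tested. The summed intestinal level was highest in creeping fat 1. Of the transcript windows of 75 bases, 5.2% of those of Krt5 also occur in other genes, Krt6a among them, and 5.7% of those of Krt14 occur in Krt16. Krt6a was at 0 in 5 libraries and Krt16 at 0 in 6.

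Other genes of layered epithelia did not follow Krt5 and Krt14. Krt15 had 8, 0 and 8 reads in creeping fat and 5, 0 and 0 in controls. Pkp1 and Evpl, a plakophilin and a plakin of layered epithelia, stood at 0.0652 to 0.466 and 0.658 to 1.29 FPKM in creeping fat and 0.0992 to 0.118 and 0.415 to 0.827 FPKM in controls. Ppl, the partner of Evpl, stood at 3.09, 4.34 and 4.87 FPKM against 6.61, 3.41 and 5.53 (-0.26 ± 0.25, adjusted p = 0.547). Pkp3, also in single-layered epithelia, stood at 2.54, 2.38 and 2.84 FPKM against 0.861, 4.40 and 1.48 (0.29 ± 0.38, adjusted p = 0.667). Trp63, a factor of basal cells from the list of further regulators, named after its values were seen, stood at 0.213 to 0.830 FPKM in creeping fat and 0.207 to 0.295 FPKM in controls.

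Intestinal genes varied more between libraries of a group than between the groups. Their summed level was 223.5, 161 and 19.8 FPKM in creeping fat libraries 1 to 3 and 12.1, 92.8 and 95.8 FPKM in controls 1 to 3. Creeping fat spanned 11.3-fold and controls 7.92-fold, while the ratio of the group means was 2.01. Of 13 intestinal genes 9 were highest in creeping fat 1 and 10 lowest in control 1. Creeping fat 3 was below control 2 in 12 of 13, the exception being Slc26a3. By limma 0 of 11 tested genes were called, and voom on recovered reads also called 0 of them.

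**Figure D3:**
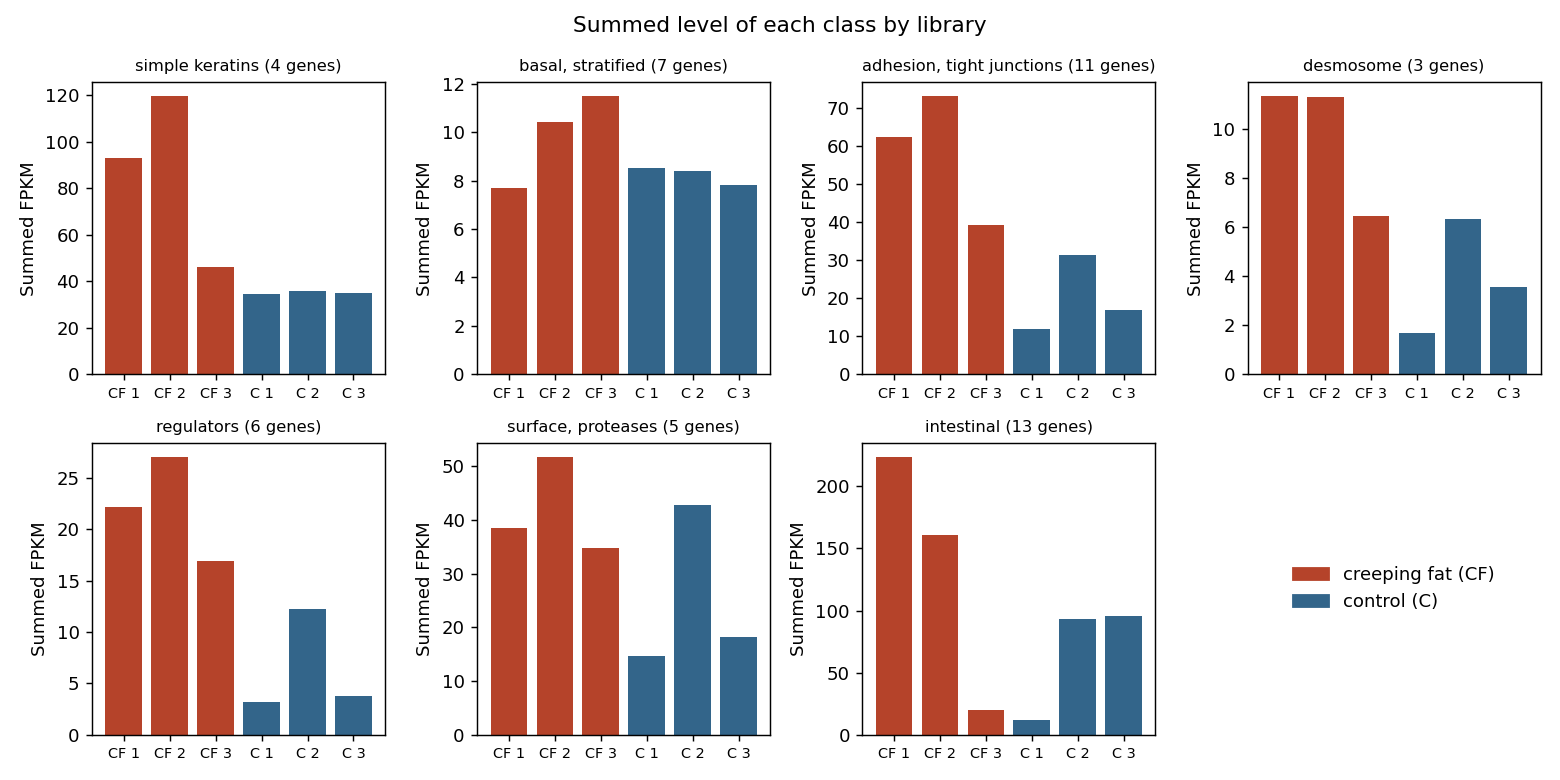
Summed FPKM of each class of epithelial genes by library (bars from 0; CF is creeping fat, C is control), with a scale of its own in each panel. The intestinal sum is 223.5 and 161 in creeping fat 1 and 2. In creeping fat 3 it is 19.8, between control 1 (12.1) and control 2 (92.8). The sums of simple keratins, junctions, the desmosome and regulators stand above each control in each creeping fat library. For the desmosome the lowest creeping fat library and the highest control are close (6.46 and 6.32).

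Of the 49 genes Muc2 had the highest mean level. Muc2, the secreted mucin that builds colonic mucus, stood at 82.5, 66.5 and 3.69 FPKM in creeping fat libraries 1 to 3 (41496, 32343 and 1688 reads) and at 2.87, 24.9 and 21.5 FPKM in controls 1 to 3 (1553, 10811 and 13008 reads). Creeping fat 3 lay near control 1, and Muc2 was not called (1.18 ± 1.23, adjusted p = 0.585). Tff3, the trefoil peptide of goblet cells, stood at 56.3, 31.4 and 3.39 FPKM against 0.393, 22.1 and 8.35 (1.59 ± 1.26, adjusted p = 0.459). Muc13, a membrane mucin of the gut, stood at 13.3, 9.97 and 0.861 FPKM against 0.753, 6.92 and 5.76 (0.55 ± 0.89, adjusted p = 0.743). In each of these genes creeping fat 1 and 2 were highest, control 2 and 3 followed, and creeping fat 3 and control 1 were lowest.

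Other genes of gut identity and absorption had much the same order of libraries. Cdx1 stood at 5.58, 4.22 and 0.400 FPKM in creeping fat and 0.0147, 2.33 and 0.566 FPKM in controls, where 0.0147 FPKM was 1 read (1.06 ± 0.67, adjusted p = 0.344). Lgals4, a galectin of the gut lining, stood at 41.8, 30.2 and 5.25 FPKM against 4.17, 23.3 and 11.7 (0.80 ± 0.83, adjusted p = 0.587). Vil1, the villin of the brush border, stood at 4.98, 3.64 and 0.684 FPKM against 0.487, 2.04 and 1.56 (0.67 ± 0.51, adjusted p = 0.433). Its exons overlap those of Usp37 on the other strand. Cdh17, a gut cadherin, stood at 3.54, 2.65 and 0.256 FPKM against 0.303, 1.55 and 1.90, and Phgr1, a small protein of gut epithelium, at 4.89, 3.78 and 1.30 FPKM against 0.192, 2.39 and 2.40. Neither was called (adjusted p = 0.703 and 0.388).

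Other intestinal genes departed from that order. Cdx2, the partner of Cdx1, was low, with 16, 44 and 5 reads in creeping fat and 1, 5 and 33 in controls. Slc26a3, the chloride and bicarbonate exchanger of colonic surface cells, stood at 3.92, 1.65 and 2.56 FPKM in creeping fat and 0.0708, 1.39 and 0.570 FPKM in controls, without overlap (1.18 ± 0.35, adjusted p = 0.0657). It was the 1 intestinal gene called without control 2. Car1, the carbonic anhydrase of colonic surface cells and red cells, stood at 34.6 FPKM in control 3 (2192 reads) and 0.375 to 3.25 FPKM in the other 5 libraries (-1.64 ± 0.91, adjusted p = 0.287). Of its 75-base windows 6.0% also occur in Gm5843. Krt20, the keratin of mature gut cells, was also highest in control 3, at 4.48 FPKM, with 0.449 and 2.47 FPKM in control 1 and 2 and 3.98, 2.66 and 0.985 FPKM in creeping fat (0.13 ± 0.54, adjusted p = 0.908). Fabp2, the fatty acid binding protein of absorptive cells, had 88 reads in control 3, 17, 15 and 0 in creeping fat libraries 1 to 3, and 4 and 3 in control 1 and 2.

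Muc2 was low beside Cldn4 and Epcam in creeping fat 3. The FPKM ratio of Muc2 to Cldn4 was 28.4 and 13.1 in creeping fat 1 and 2, 14.4, 30.6 and 31.4 in controls 1 to 3, and 0.668 in creeping fat 3. The ratio of Muc2 to Epcam was 6.30, 5.23 and 0.794 in creeping fat libraries 1 to 3 and 3.97, 6.26 and 9.54 in controls 1 to 3. These pairs were chosen after their values were seen, and no test was made of 1 library. Of the class sums, the intestinal one was below the junction one in creeping fat 3 alone (19.8 and 39.3 FPKM). Control 1 came nearest, at 12.1 and 11.7 FPKM. In creeping fat 1 and 2 the intestinal sums were 223.5 and 161 FPKM and the junction sums 62.2 and 73.0 FPKM. In control 2 and 3 they were 92.8 and 95.8 FPKM for intestinal genes and 31.3 and 16.9 FPKM for junction genes.

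Further genes of the gut lining did not share 1 order of libraries. Of 18 goblet, Paneth and crypt genes creeping fat 1 was highest for 9 and control 1 lowest for 7. Of 19 colonocyte and enterocyte genes control 3 was highest for 6 and creeping fat 3 lowest for 7. Over all tested genes 9.35% were higher and 6.81% lower, the background for the counts of each further list given from here on. In a list of 18 goblet, Paneth and crypt genes, 3 of 10 tested genes were called: Smoc2 and Mmp7 rose and Zg16 fell. Smoc2 is also made by fibroblasts and Zg16 by the exocrine pancreas. The most abundant were Zg16, at 85.7, 95.3 and 10.4 FPKM in creeping fat and 828, 1195 and 457 FPKM in controls, and Reg3b, which was 359 FPKM in creeping fat 2, at most 0.0729 in the other creeping fat libraries and 6.14, 56.4 and 28.7 FPKM in controls. Reg3b is made by injured pancreas and by gut. The goblet genes Spink4 and Fcgbp, named after their values were seen, stood at 93.8, 70.4 and 0.620 FPKM and 46.1, 26.7 and 5.89 FPKM in creeping fat libraries 1 to 3. In controls 1 to 3 they stood at 0.327, 7.996 and 1.70 FPKM and 1.17, 23.8 and 10.03 FPKM. Of 19 colonocyte and enterocyte genes 8 were tested, Anpep rose (64.4, 47.3 and 70.5 against 21.3, 28.0 and 16.6 FPKM), and Apoc3 and Slc51b fell. Ceacam1 was not called (20.7, 16.2 and 5.57 against 6.23, 14.5 and 21.7 FPKM). Summed, this list was 114, 91.4 and 85.45 FPKM in creeping fat and 49.7, 72.9 and 75.1 FPKM in controls. Creeping fat 3 was above each control in this sum, but Anpep alone made up 70.5 of its 85.45 FPKM. In controls Anpep made up 16.6 to 28.0 FPKM, so the place of creeping fat 3 in this sum rested on Anpep.

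Other members of the same families were mixed. In a list of 15 further keratins 2 were tested: Krt79 fell (0.0791, 0.0819 and 0.247 FPKM against 2.22, 1.499 and 1.24) and Krt80, at 4.50 to 8.42 FPKM, was not called. Of 25 further junction genes 16 were tested. Cgn and Perp, a tight junction scaffold and a desmosome protein, rose, and Jup, Pkp2 and Pkp4, which also serve junctions of other cells, fell. The most abundant were Cldn5, the claudin of blood vessels (20.01 to 35.7 FPKM in creeping fat, 31.5 to 69.8 in controls), and F11r (28.2 to 36.3 against 19.3 to 25.3), neither called. Of 16 further epithelial transcription factors 7 were tested. Elf5, an ETS factor of glands, rose by 2.55 ± 0.26 (3.91, 7.36 and 8.48 against 0.209, 0.371 and 0.168 FPKM; adjusted p = 0.00248), but had no control at 1 FPKM and so was tested through creeping fat alone. Gata6 rose by 1.34 ± 0.26 and Grhl1 fell by 1.03 ± 0.20. Klf5 was not called (7.92, 7.77 and 1.97 against 1.62, 3.62 and 2.03 FPKM).

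Of 6 repressors of epithelial genes, each tested, 3 rose, against 9.35% of all tested genes: Snai1 by 1.76 ± 0.26 (12.3, 20.6 and 10.4 against 2.95, 4.12 and 3.15 FPKM; adjusted p = 0.00678), Twist1 by 2.21 ± 0.30 (adjusted p = 0.00556) and Snai2 by 0.75 ± 0.17 (adjusted p = 0.0287). Zeb2, the most abundant, stood at 33.8 to 38.3 FPKM in creeping fat and 26.5 to 47.5 in controls and was not called (0.00 ± 0.22, adjusted p = 0.995). Zeb1 (-0.19 ± 0.23) and Twist2 (0.18 ± 0.23) were not called either. These factors are expressed by fibroblasts, and the cells that made them were not identified.

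Markers of other tissues that hold epithelia moved in different ways. Of 15 seminal vesicle genes 14 were tested and each was called higher, but 5 of them (Svs3b, Pate4, Sva, Aoc1 and Tgm4) had no control at 1 FPKM and were tested through creeping fat alone, so the count is a description. They were led in level by Svs5 (6207 to 12620.0 FPKM in creeping fat, 0.171 to 20.5 in controls) and Svs4, with Svs1, Svs2, Svs3a, Svs3b, Svs6, Pate4, Sva, Spinkl, Spink1, Ceacam10, Aoc1 and Tgm4. Of 13 prostate and accessory gland genes 7 were tested. Pbsn (61.0, 5.34 and 42.6 FPKM in creeping fat, 0 to 0.164 in controls) and Tgm4 rose, both tested through creeping fat alone, and Mme fell. Pigr, named after its values were seen, was not called and stood at 27.4, 29.1 and 2.41 FPKM against 0.642, 14.1 and 3.72, highest in creeping fat 1 and 2 and next in control 2 and 3, as Muc2 was. The summed prostate level was lowest in creeping fat 2 among creeping fat libraries, unlike Krt5 and Cldn4. Of 7 urothelial genes 3 were tested and 0 called, with Upk3b and Upk1b the most abundant. Upk2, named after its values were seen, stood at 0.443, 1.70 and 0.871 FPKM in creeping fat and 0 in each control.

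Of 12 mesothelial genes, each tested, Wt1 and Cdh3 rose and 10 were not called. Wt1 stood at 17.8, 33.7 and 28.2 FPKM in creeping fat and 7.73, 2.23 and 9.45 FPKM in controls, and Cdh3 at 17.01, 16.2 and 15.2 against 3.31, 1.11 and 2.36. Bnc1, at 1.61, 2.87 and 1.88 FPKM against 1.27, 0.138 and 1.27, did not overlap but was not called. Bnc1 and Msln are named after their values were seen. Msln and Upk3b had the opposite sign and were not called, at 1.13, 5.78 and 0.825 FPKM against 9.04, 0.309 and 7.19, and at 1.25, 12.8 and 2.199 FPKM against 37.8, 1.24 and 31.9. Summed, the mesothelial list was 65.5, 140.3 and 77.2 FPKM in creeping fat and 108, 23.6 and 101 FPKM in controls, so the groups overlapped. Of 12 pancreatic duct genes 6 were tested, Bicc1 (41.5 to 43.9 against 9.79 to 13.4 FPKM) and Tspan8 rose, Sctr fell, and Car2 was not called (3.64 to 8.92 against 1.55 to 6.88 FPKM). The duct channel gene Cftr stood at 0.540, 0.436 and 0 FPKM against 0.0286 to 0.198. Of 30 acinar genes 29 were tested. Of these 17 fell, among them the digestive enzymes Cela2a, Cpb1, Pnlip and Cel, and Spink1, also on the seminal vesicle list, rose. The most abundant, Ctrb1, stood at 3.40, 2210.0 and 2.44 FPKM in creeping fat and 3912 to 9145 FPKM in controls. The 13 islet genes were not past the filter, with Ppy at most 1.43 FPKM and Chga at most 1.39 FPKM, both in creeping fat 2. Of 10 genes of gut muscle and enteric cells 9 were tested and 0 called (3 at an unadjusted p under 0.05), with Actg2 at 138, 118 and 74.9 FPKM against 111, 11.97 and 13.5 and Myh11 at 66.1 to 91.7 against 32.4 to 97.4. Of 8 leukocyte genes Adgre1, the F4/80 antigen of macrophages, rose, and Csf1r and Cd79a were not called.

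The calls among the 49 genes moved with single libraries. With any 1 library left out, Cldn4 and Cldn8 were still called, with adjusted p from 0.00247 to 0.032 and from 0.000432 to 0.0218. Both were tested through creeping fat alone, and each of these fits kept the genes that passed the filter with all libraries. Krt18, Cldn3 and Ehf were each lost when any library but control 2 was left out. Elf3 and Esrp1 were lost without any of creeping fat 1, creeping fat 2, control 1 or control 3. In all, 2 genes were called without creeping fat 1, creeping fat 2, control 1 or control 3, and 8 without creeping fat 3, when Krt8, Krt19, Epcam and Dsp were gained. Without control 2 there were 19, namely the 7 and Cdh1, Cldn7, Dsg2, Dsp, Epcam, Pkp3, Prom1, Slc26a3, Spint1, Spint2, St14 and Tjp3. Over all tested genes, higher calls went from 1198 to 2896 and lower calls from 872 to 1857 without control 2, so the gain was not particular to these genes. Control 2 was the highest control for Epcam, Cdh1, Cldn3, Ehf, Elf3 and St14.

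**Figure D4:**
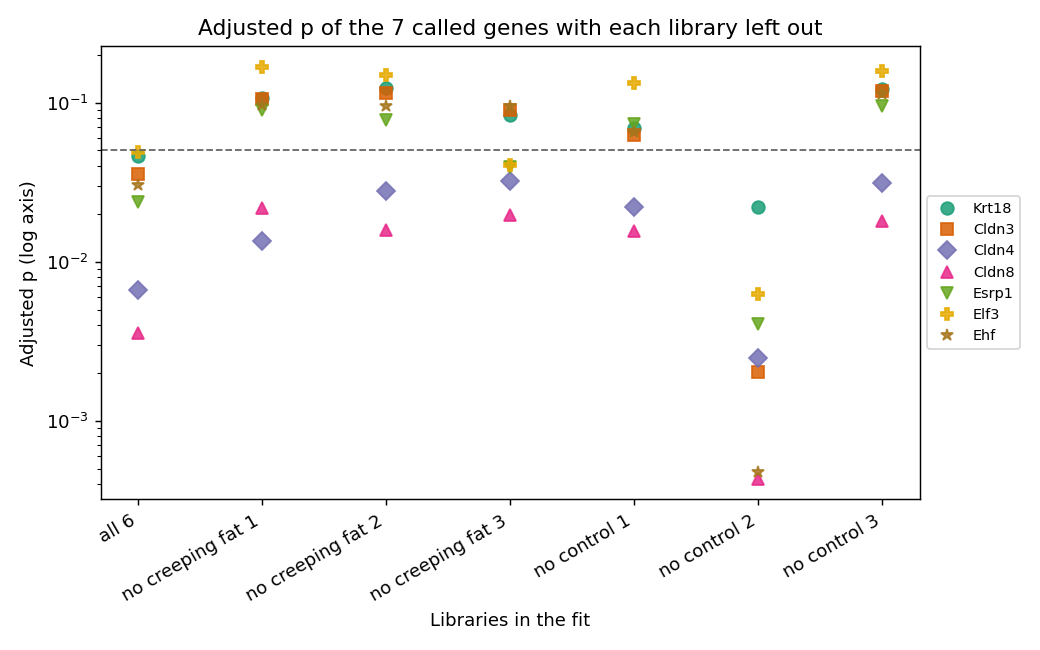
Adjusted p (log axis) of the 7 called genes in fits with all 6 libraries and with each library left out; the dashed line is 0.05. Cldn4 and Cldn8, both tested through creeping fat alone, stay under the line in each fit. The other 5 rise above it without creeping fat 1, creeping fat 2, control 1 or control 3.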

How the data were processed

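Total RNA was sequenced from 3 creeping fat and 3 control libraries, made with a stranded kit after ribosomal RNA removal per the labels' protocols. The authors deposited FPKM values for 22134 gene symbols. Per the submitters' processing notes mm10 was used, and the aligner, counter, annotation and strand setting are not given in the sources used here. Groups and replicate numbers come from the sample titles.

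FPKM are whole multiples of 1 read's value within a gene. Solving for library totals and lengths gave whole reads within 0.002 reads for 18714 of 18714 genes above 0 (length tried up to 200000 bases), and totals of 31186018 to 43415696. For genes with reads in few libraries a length nearly always exists, so their reads are less sure. No pair of libraries held identical values (0 pairs).

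The 12812 genes that reached 1 FPKM in 3 or more of 6 libraries were tested on log2(FPKM + 1) with limma 3.58.1 (R 4.3.3; lmFit, eBayes with trend, two-sided, Benjamini-Hochberg), called at an adjusted p under 0.05. With 3 against 3, an exact permutation test cannot go below p = 0.1, so none is given. Each of the 49 genes is accounted for. The 25 most abundant and those called have values in each library, other genes as ranges or reads, and further lists by their 2 most abundant and their called genes, except the acinar list, of which only some called genes are reported here. The genes and lists were chosen with earlier results of these data known. Alternatives were another pseudocount (0.1), no filter, a mean of at least 5 FPKM, quantile normalization, rescaling without the seminal vesicle and acinar lists, voom on recovered reads, the replicate number as a block, and each library left out. Leaving out creeping fat 2 and control 2 together was added after the data were seen. The fit and the recovery were tested on simulated data. Overlaps and shared windows come from GENCODE M21, promoters from RefSeq GRCm38.p6. Python 3.11.15 was used.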

Additional observations from a re-analysis of the deposited data

How the results depend on the processing

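Among the 49 genes 7 were higher with all libraries and 2 to 19 with 1 left out; 0 were lower in each of these fits. The number higher was 2 under a filter on the mean (5 FPKM or more), where 13 of the 49 were tested and Cldn4, Cldn8, Ehf, Elf3 and Esrp1 were not, and 19 with creeping fat 2 and control 2 left out. It was 5 to 8 under the other alternatives. Among all genes, 876 of 8428 tested were higher and 718 lower under the filter on the mean. These other alternatives gave 636 to 1217 genes higher and 378 to 980 lower. Elf3 was lost with a pseudocount of 0.1, no filter, rescaling, voom and the block, and Krt18 with no filter, quantile normalization and rescaling. With no filter Cldn3 and Ehf were lost too and Grhl2, Krt14 and Krt5 gained. Cldn4 and Cldn8, which passed the main filter through creeping fat alone, were called in each setting that tested them. Over all genes, leaving out 1 library gave 576 to 2896 higher and 287 to 1857 lower, and leaving out creeping fat 2 and control 2 gave 2713 and 1731.

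The labels do not say whether the replicate numbers pair the libraries. Deviations of same-numbered libraries from their group means correlated at -0.181, -0.18 and -0.081 across genes. Those of differently numbered libraries correlated at -0.138 to 0.243. Deviations from a mean of 3 libraries depend on each other, so these values cannot decide whether there was pairing. With the replicate block 636 genes were higher and 378 lower, and 6 of the 49 were higher and 0 lower (Elf3 lost, adjusted p = 0.0504).

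Signs turned for 5 genes, none of them called with all libraries. Krt7 (0.28) ranged from -0.1521 without control 2 to 0.5816 without control 1, with -0.02506 without creeping fat 2 and -0.4546 without both libraries numbered 2. Pkp3 ranged from -0.03058 without control 1 to 0.7374 without control 2, where it was called. Esrp2 ranged from -0.01307 without control 3 to 0.5964 without control 2. Krt20 ranged from -0.3994 without control 1 to 0.5603 without control 3, with -0.1643 without creeping fat 1. Muc13 ranged from -0.1414 without control 1 to 1.462 without creeping fat 3, with -0.008221 without creeping fat 1. The median of all tested genes moved from 0.017 to 0.131 without control 2. Genes with few reads, such as Krt15 and Cdx2, are limited by depth.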
